A study of Mus musculus with 6 samples.

Results

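Secreted and secretory-pathway products of 4 neuronal genes were followed here as transcripts in the mouse hippocampus after focal ischemia: the neuronal pentraxins Nptx1 and Nptx2, the granin Scg2 (secretogranin II) and the prohormone convertase Pcsk1. They were chosen by gene symbol and make up 4 of the 637 genes in the authors' deposited table. RNA was sequenced from the hippocampus of C57BL/6 mice aged 56 days, in 3 samples after middle cerebral artery occlusion (MCAO, a model of stroke that closes a large artery supplying the forebrain) and in 3 samples after a sham operation. Both groups are titled 2 h, and per the labels' protocols the ischemic treatment lasted 2 h. The genotype is labelled wild type, and the labels do not say whether samples came from separate animals, so the spread behind the p-values may be that of technical repeats. For each gene the authors' deposited table holds a read count for either group, taken here as the mean normalised read count, with no standard deviation. Values per sample are therefore not shown for any gene. Column M2 was taken for MCAO and column S2 for sham, by the first letters of the treatments, and all directions below depend on this.

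Neuronal pentraxins are secreted, lectin-like proteins that assemble with each other and with the membrane-bound receptor Nptxr and cluster AMPA-type glutamate receptors at excitatory synapses. Nptx2, also called Narp, is known as a gene that neurons transcribe after strong activity, whereas Nptx1 is made more steadily. Scg2 is an acidic cargo protein of dense-core vesicles and the precursor of the peptide secretoneurin. Pcsk1 is a protease of the same vesicles that cuts prohormones after paired basic residues, and granins are among its substrates.

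The promoters of the cargo gene Scg2 and of the enzyme gene Pcsk1 are shown because both transcripts rose and both promoters hold the same 8-base element. The sequences are the 250 bases before the transcription start in RefSeq (build GRCm38.p6), written on the strand of the gene, and capitals mark the cAMP response element (CRE, TGACGTCA) and its half-site (TGACG, either strand). That build is not the annotation the reads were counted on. The promoter table used had entries for 2 of the 4 genes, and the promoters of Nptx1 and Nptx2 were not analysed here.
Scg2 promoter, chr1:79440027-79440276, minus strand: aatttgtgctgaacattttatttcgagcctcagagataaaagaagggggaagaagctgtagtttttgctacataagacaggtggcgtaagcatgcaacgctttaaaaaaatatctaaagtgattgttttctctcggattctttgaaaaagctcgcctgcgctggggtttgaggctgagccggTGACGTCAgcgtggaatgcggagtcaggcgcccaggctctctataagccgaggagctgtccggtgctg
Pcsk1 promoter, chr13:75089607-75089856, plus strand: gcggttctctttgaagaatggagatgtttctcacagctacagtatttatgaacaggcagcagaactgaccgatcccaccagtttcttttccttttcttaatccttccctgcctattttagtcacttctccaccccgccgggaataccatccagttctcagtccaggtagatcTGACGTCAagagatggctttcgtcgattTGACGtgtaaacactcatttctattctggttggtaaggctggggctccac

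In Scg2 the full CRE began 68 bases before the start and in Pcsk1 78 bases before it. Pcsk1 held a further half-site 50 bases before the start, outside its CRE. A TATA motif (TATAA, either strand) lay 27 bases before the start of Scg2, and no match to these letters was found in the 300-base window of Pcsk1. Neither window held the AP-1 motif TGANTCA. A full CRE was found in 549 of 27025 genes with a promoter in the table (2.03%), searching 250 bases before to 50 after each start. It was found in 31 of 277 genes that the authors' deposited table lists as higher and that have a promoter (11.2%), and in 1 of 151 listed as lower (0.662%). The 27025 genes were not limited to those tested or expressed here, and a gene counted if any of its promoters matched. Counted per promoter, the shares with a full CRE were 8.54% for higher genes, 0.526% for lower genes and 1.79% for all. The half-site, which every full CRE contains, was in 57.4% of the higher genes, 27.2% of the lower genes and 23.05% of all genes. The AP-1 motif was in 7.22% of the higher, 7.28% of the lower and 8.97% of all genes. The TATA motif was in 26.7% of the higher, 17.2% of the lower and 28.0% of all genes, so its share also differed between higher and lower genes. These shares are descriptions of letters in a window, were computed after the calls were known and were not tested, and Scg2 and Pcsk1 are among the 31.

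**Figure D1:**
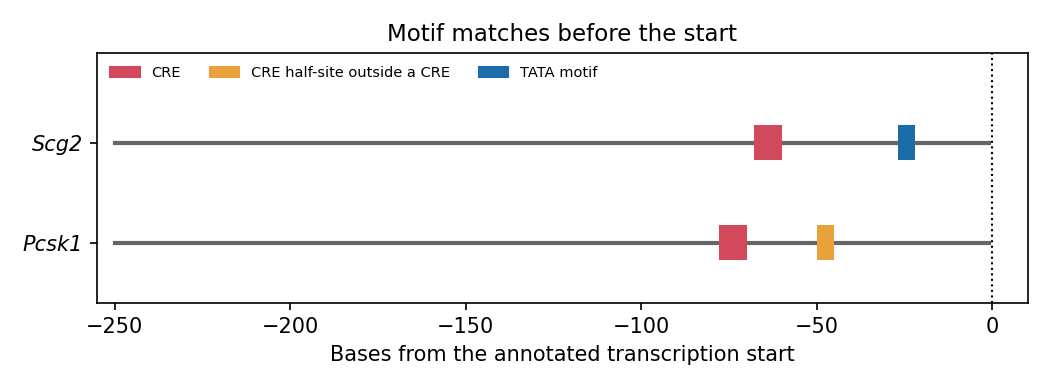
Motif matches in the 250 bases before the annotated start of Scg2 and Pcsk1, with distance from the start on the x axis in bases. The CRE begins 68 bases before the start in Scg2 and 78 bases before it in Pcsk1.

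Of the 4 transcripts, 3 rose in ischemia and 1 fell. Across all genes the authors tested, 2.25% were called at an adjusted p-value below 0.05, with 1.47% higher and 0.784% lower. At an adjusted p-value below 0.01 the 3 rises were still called (0.929% of all genes were, as higher) and the fall of Nptx1 was not (0.346% as lower). Below 0.001 Nptx2 and Scg2 were still called and Pcsk1 was not (0.604% as higher and 0.131% as lower over all genes). With a minimum change of 2-fold the 3 rises remained (0.787% as higher) and Nptx1 did not (0.169% as lower), and with a Bonferroni correction 0 of the 4 remained (0.561% of all genes). Since the genes were picked with these calls known, nothing is read from their count. In bulk tissue, fewer cells of a type and less RNA per cell cannot be told apart.

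Nptx2 (MGP_BALBcJ_G0030336) averaged 1759 normalised reads in sham and 26499 in ischemia in the authors' deposited table. This is a log2 fold change of 3.91 with p = 5.49e-06 (adjusted p = 0.000781) from the authors' deposited table. It placed Nptx2 23rd by fold among the 415 higher genes but 163rd by p-value. Its nearest neighbour in the plane of the log2 group means was Egr4, an activity-induced zinc finger transcription factor, at a distance of 0.15 over the 2 means. Egr4 averaged 1887 normalised reads in sham and 28505 in ischemia, with p = 3.58e-15, in the authors' deposited table. The pair therefore had nearly the same level and fold and very different p-values. The next nearest were Rgs2, a brake on G protein signals (distance 0.50), and Errfi1, an inhibitor of growth factor receptors (0.63). In the order of folds Egr4 stood next above Nptx2 and the centriole gene Stil next below, at 14.7-fold in the authors' deposited table.

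Nptx1 (MGP_BALBcJ_G0019427) moved the other way, from 32135 normalised reads in sham to 23037 in ischemia in the authors' deposited table. This is a log2 fold change of -0.48 (p = 0.000193, adjusted p = 0.0138) in the authors' deposited table. Its fold ranked 210th among the 222 lower genes, between those of Chst15, a sulfotransferase gene (-0.48), and Atf7ip, a chromatin factor gene (-0.48), in the authors' deposited table. Because Nptx1 was abundant, the small fold was a large number of reads. Nptx1 fell by 1744 normalised reads per kilobase, the largest fall of the 203 lower genes with exons in the GENCODE M21 annotation. Among listed genes with a symbol, the nearest to Nptx1 in level were the growth cone gene Basp1, the Golgi trafficking gene Rab6a and the protocadherin Pcdh1, at distances of 0.70, 0.76 and 0.79. Basp1 and Rab6a rose, 1.39-fold and 1.47-fold, and Pcdh1 fell 1.35-fold, in the authors' deposited table.

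Set against each other, the group means of the pentraxins changed places. Per kilobase of annotated exon, Nptx1 stood at 6160 normalised reads in sham and 4416 in ischemia, and Nptx2 at 694 and 10449. Nptx1 was thus 8.88-fold above Nptx2 in sham, and Nptx2 was 2.37-fold above Nptx1 in ischemia. In reads not divided by length, Nptx1 was 18.3-fold above Nptx2 in sham, and Nptx2 was 1.15-fold above Nptx1 in ischemia. The Nptx2 share of the 2 transcripts, per kilobase, went from 10.1% to 70.3%. The log2 fold changes differed by 4.39, a 21.0-fold shift in the Nptx2 to Nptx1 ratio. No error for this shift, or for the order of the 2 in ischemia, can be computed from group means, and neither was tested. The pentraxin transcripts share no 36-base word with each other in GENCODE M21. Of the 2501 such words in Nptx2 0 occur in another gene, and of the 5182 in Nptx1 9 do. The read length is not known here. No exon of the 4 genes overlapped an exon of another gene in that annotation.

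Scg2 (MGP_BALBcJ_G0016142) averaged 9677 normalised reads in sham and 37068 in ischemia in the authors' deposited table, a log2 fold change of 1.94 (p = 2.35e-06, adjusted p = 0.000389). It had the smallest p-value of the 4 transcripts and ranked 142nd of 415 higher genes by p-value and 106th by fold. Its rise of 10891 normalised reads per kilobase was the 7th largest of 361 higher genes with annotated exons. That of Nptx2, 9755, was the 8th. In reads not divided by length, the rises of Scg2 and Nptx2 ranked 13th and 16th among the same genes. Nearest to Scg2 in level were the nuclear pore gene Ranbp2 (distance 0.34), the G protein signal brake Rgs4 (0.42) and the zinc finger transcription factor Egr1 (0.55). By fold it stood between Emd, which encodes the nuclear envelope protein emerin (3.86-fold), and the imprinted gene Mest (3.82-fold) in the authors' deposited table. Emd had p = 2.61e-27 and Mest p = 2.54e-06 in the authors' deposited table.

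Pcsk1 (MGP_BALBcJ_G0020722) averaged 1025 normalised reads in sham and 5817 in ischemia in the authors' deposited table, a log2 fold change of 2.51 (p = 8.48e-06, adjusted p = 0.00114). It ranked 80th of 415 higher genes by fold and 173rd by p-value. Nearest to it in level were Tiparp, an ADP-ribosyltransferase gene (distance 0.14), the matrix protease gene Adamts1 (0.33) and the phosphatase gene Dusp1 (0.43). By fold Pcsk1 stood between the nuclear factor gene Csrnp1 (5.71-fold) and the orphan nuclear receptor gene Nr4a2 (5.68-fold) in the authors' deposited table. Nr4a2 had a fold within 0.0003 of that of Pcsk1 on the log2 scale and p = 0.000364 in the authors' deposited table.

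The transcripts of enzyme and cargo both rose in group mean, and that of the enzyme remained far scarcer. Per kilobase of annotated exon, Scg2 stood at 3848 normalised reads in sham and 14739 in ischemia, and Pcsk1 at 183 and 1038. Scg2 was 21.0-fold above Pcsk1 in sham and 14.2-fold above it in ischemia. The log2 fold change of Pcsk1 exceeded that of Scg2 by 0.57, a 1.48-fold shift in their ratio. This difference is about the size of the standard error implied for Pcsk1 alone (0.56, derived below), and it was not tested. Ordered by level per kilobase, the 4 transcripts ran Nptx1, Scg2, Nptx2, Pcsk1 in sham and Scg2, Nptx2, Nptx1, Pcsk1 in ischemia. Whether neighbours in these orders differ beyond the spread between samples cannot be said from means.

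**Figure D2:**
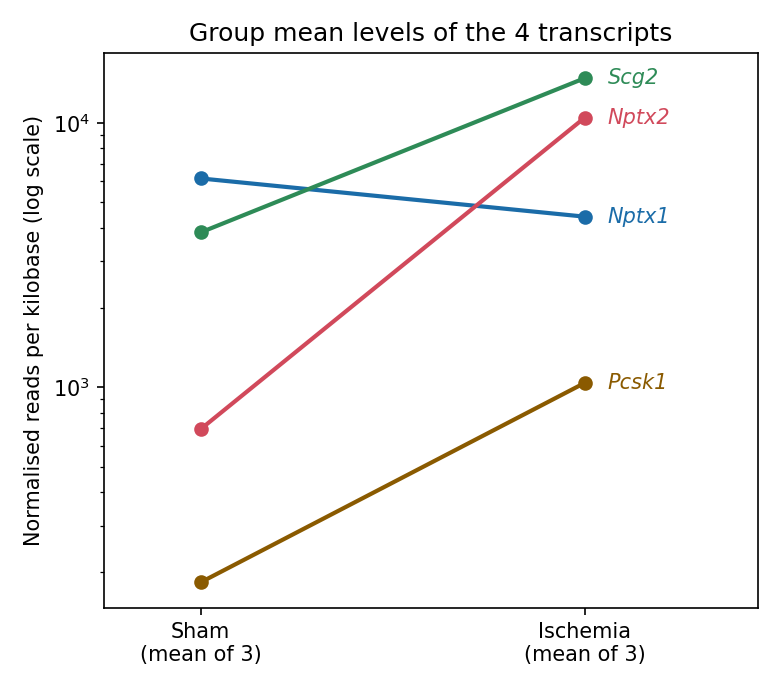
Mean level of each transcript in the sham and ischemia groups (x axis) in normalised reads per kilobase on a log y axis; each point is the authors' mean for a group of 3 samples, without error bars, since values per sample were not used here. The Nptx1 and Nptx2 lines cross, from 6160 and 694 in sham to 4416 and 10449 in ischemia, and Scg2 and Pcsk1 both rise.

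**Figure D3:**
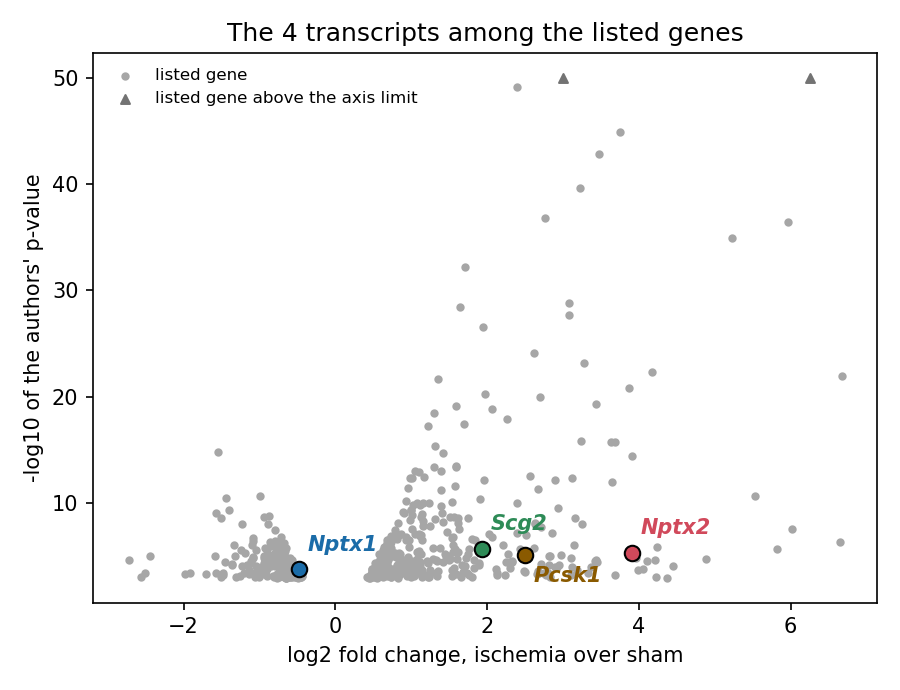
Log2 fold change (x axis) against -log10 of the p-value (y axis, capped at 50, with triangles for genes above the cap) for the genes of the authors' deposited table that have a finite fold. Nptx2 lies far to the right, at 3.91, but low on the y axis, and Nptx1 lies at -0.48 on the left.

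The errors behind these changes were read from the p-values. If each p-value came from a two-sided normal statistic, the log2 fold change divided by that statistic gives an implied standard error. Which test the authors ran is not known here, so these are conditional values. The reading fails for Cxcl2 and Tfpi2, which were listed with 0 normalised reads in sham and an infinite fold. On that reading the standard error was 0.86 for Nptx2, 0.56 for Pcsk1, 0.41 for Scg2 and 0.13 for Nptx1, on the log2 scale. The corresponding 95% intervals ran from 4.68-fold to 48.5-fold for Nptx2, from 2.64-fold to 12.2-fold for Pcsk1 and from 2.19-fold to 6.69-fold for Scg2. For Nptx1 the interval ran from 1.17-fold to 1.66-fold lower. The interval of Nptx2 was the widest of the 4 and overlapped those of Pcsk1 and Scg2.

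The implied standard errors of all listed genes lay on or above a smooth lower edge that fell with level. Nptx1 lay almost on this edge, at 1.01 times the lowest value among 17 other genes whose mean level was within 0.5 of it on the log2 scale. How the authors' test estimated spread is not known, so a value on the edge need not be the spread of Nptx1 between samples. Nptx2 lay above all 27 genes of like level, at 6.77 times the lowest. Pcsk1 lay above 99 of 100 genes of like level (4.34 times the lowest), and Scg2 above 18 of 22 (3.23 times). Listing itself bounds these values. A gene with the fold of Nptx1 could be listed only with an implied standard error of up to 0.15. One with the fold of Nptx2 could have up to 1.20, with that of Pcsk1 0.77 and with that of Scg2 0.59. Genes of like level but much smaller fold could not reach the values of Nptx2, Pcsk1 or Scg2. The counts by level therefore partly follow from fold. Among genes with a mean of at least 1000 normalised reads and a log2 fold change within 0.5 of that of Nptx2, 6 of 8 had smaller p-values than Nptx2. For Pcsk1 this was 13 of 23, for Scg2 17 of 40 and for Nptx1 46 of 91. In these windows of like fold the median implied standard error was 0.47 for Nptx2, 0.50 for Pcsk1, 0.36 for Scg2 and 0.15 for Nptx1. The highest was 0.92, 0.79, 0.62 and 0.22, in the same order.

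**Figure D4:**
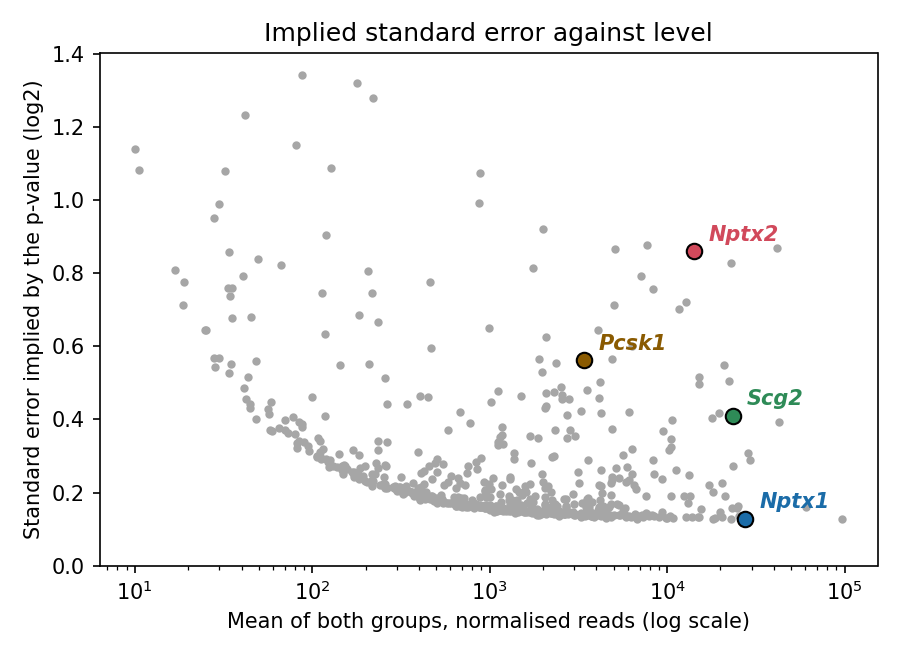
Standard error on the log2 scale implied by the p-value under a normal statistic (y axis) against the mean of both groups in normalised reads (log x axis), with 1 point per listed gene with a finite fold. Nptx1 (0.13) lies on the lower edge, and Scg2 (0.41), Pcsk1 (0.56) and Nptx2 (0.86) lie above it.

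Other genes of the same pathways were counted from 8 lists. Without Nptx1, Nptx2, Scg2 and Pcsk1 these hold 127 genes, of which 15 rose, 1 fell and 111 were not called, beside 1.47% higher and 0.784% lower over all genes tested. The lists were drawn up with earlier results of these data known, so nothing is read from the difference. The median log2 fold change of the 16 called was 2.54, against 0.66 over all 637 genes of the authors' deposited table and 1.07 over its 415 higher genes. The 16 include Fos, Fosb, Junb, Nr4a1 and Npas4, which were listed as genes known to rise with activity, so nothing is read from this median either. The table leaves out genes without a call, so neither the level nor the change of these is known.

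Among 7 pentraxin genes the receptor Nptxr and the immune pentraxins Ptx3, Ptx4, Crp and Apcs were not called. None of 21 genes for AMPA receptor subunits, their auxiliary proteins and other extracellular synapse organisers was called in either direction, and with 2.25% of all genes called such a count says little about them. Of 7 granin family genes, Vgf rose beside Scg2. Vgf, a growth factor-inducible precursor of several neuropeptides, averaged 17838 normalised reads in sham and 39519 in ischemia (log2 fold change 1.15, adjusted p = 0.0140) in the authors' deposited table. The granins Chga, Chgb and Scg3, and the convertase-binding proteins Scg5 and Pcsk1n, were not called.

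Of 17 genes for prohormone cleavage and peptide modification, Pcsk1 was the 1 called. Its relative Pcsk2, the general convertase gene Furin, the carboxypeptidase gene Cpe and the amidating enzyme gene Pam were among the 16 not called. Of 22 genes for the making and release of dense-core vesicles, Syt4, a vesicle synaptotagmin, was called, at 5432 normalised reads in sham and 11425 in ischemia (adjusted p = 0.00213) in the authors' deposited table. Of these 3 lists, 1 enzyme, 2 granins and 1 vesicle protein were called, beside 2.25% of all genes (1.47% as higher). Pcsk1 and Scg2 among them were picked with their calls known. Such counts say little about the members that were not called.

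Of 24 peptide precursors, Adm (adrenomedullin, a vasodilator) and Edn1 (endothelin 1, a vasoconstrictor) rose (1.47% as higher over all genes). Adm averaged 34.7 normalised reads in sham and 140.9 in ischemia, and Edn1 78.8 and 170.3, in the authors' deposited table. The neuropeptide genes Npy, Sst, Cck, Tac1, Penk and Pdyn were among the 22 not called. With 2.25% of all genes called, this says little about them. Of 20 neurotrophins and other regulated secreted factors, 5 rose and 0 fell (1.47% and 0.784% over all genes). Bdnf, a neurotrophin stored in dense-core vesicles, averaged 2231 normalised reads in sham and 14342 in ischemia, a log2 fold change of 2.68 (adjusted p = 0.0233) in the authors' deposited table. The growth factor genes Areg and Hbegf had log2 fold changes of 3.45 and 0.73, and the matrix genes Cyr61 and Adamts1 of 3.44 and 2.40, in the authors' deposited table.

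Among 15 genes of the CREB family, its coactivators and classic targets, 6 rose and 1 fell (1.47% and 0.784% over all genes), and the targets were put on the list as genes known to rise with activity. Crem, which encodes CRE-binding factors, averaged 796 normalised reads in sham and 1966 in ischemia (adjusted p = 3.32e-11), and the coactivator gene Ep300 from 4089 to 2762 (adjusted p = 0.00480), in the authors' deposited table. The targets Fos, Fosb, Junb, Nr4a1 and Npas4 rose, from 8.01-fold for Nr4a1 up to 76.5-fold for Npas4 in the authors' deposited table. Creb1 and the coactivator genes Crtc1, Crtc2, Crtc3 and Crebbp were not called. Of the 20 called genes on the 8 lists, 13 had a promoter in the RefSeq table. A full CRE was present in 3 of these, Scg2, Pcsk1 and Areg, and a half-site in 10. Of all higher genes with a promoter, 11.2% held a full CRE and 57.4% a half-site. Scg2 and Pcsk1 were shown for their CRE. Fos, Fosb, Junb, Nr4a1 and Npas4, listed as CREB targets, are among the 10, so nothing is read from these counts.

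**Figure D5:**
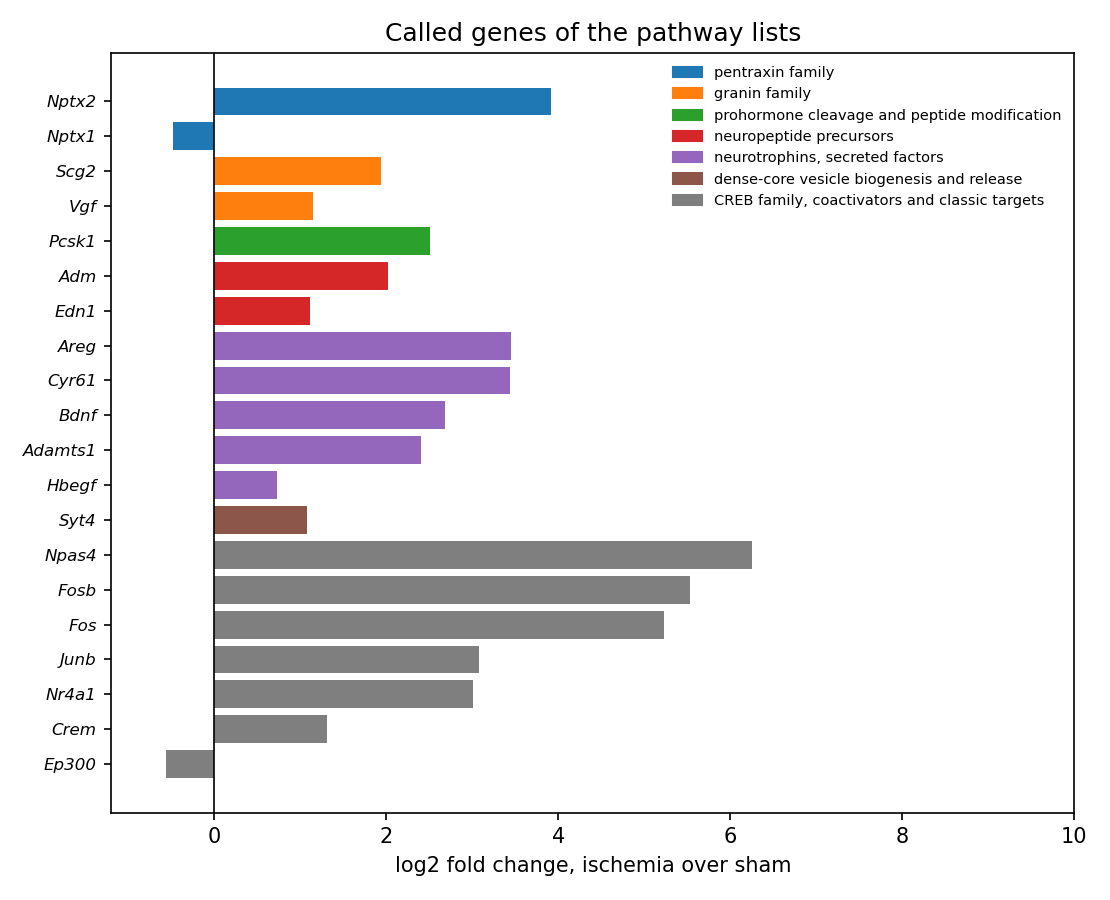
Log2 fold change in ischemia over sham (x axis) of each called gene of the 8 pathway lists, 1 bar per gene, coloured by list, from the authors' deposited table. Nptx1 (-0.48) and Ep300 (-0.57) are the 2 bars below 0.

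Markers of cell types that the tissue holds were counted beside these changes. Of 7 neuronal markers Nefl, a neurofilament gene, rose 1.60-fold and the other 6 were not called, and 0 of 5 pyramidal cell and 0 of 6 interneuron markers were called. The dentate granule cell markers Lct and Dsp fell (2.92-fold lower for Lct, 2.83-fold lower for Dsp in the authors' deposited table), with 4 of 6 not called. Of the glial lists, 4 of 7 oligodendrocyte and 2 of 6 microglia markers rose and 0 of 4 astrocyte markers were called. Of 5 endothelial markers 4 were not called, and the authors' deposited table lists the transcription factor gene Sox18 as 2.16-fold lower (adjusted p = 0.00347). Of 4 leukocyte markers S100a8 and S100a9 rose and 2 were not called. Over all genes tested 1.47% were called higher and 0.784% lower. The marker lists were drawn up with earlier results of these data known, so nothing is read from these counts. Defining markers that were not called have no level in the table, so the labelled tissue could be checked only in part. The part of cell composition in the changes of the 4 transcripts was not tested.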

How the data were processed

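RNA was sequenced from 6 hippocampus samples, 3 per group. The submitters' processing notes name Bowtie 0.12.2 and the genome build mm8; counting, strand, normalisation method and test are not stated there. Of 637 gene identifiers 612 carry an Ensembl BALB/cJ prefix, so the annotation was not that of mm8. The authors deposited a read signal per gene and group, with the log2 fold change, p-value and adjusted p-value of the comparison. The headers call the signal a read count, and it was taken here as a normalised group mean. The deposited log2 fold change equals the log2 ratio of the means to within 5.0e-05. With 0 columns for single samples, the depth is unknown and the planned limma fit was not run.

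The number of genes tested, 28319, is the Benjamini-Hochberg total that returned the deposited adjusted p-values in 636 of 637 rows, a search also tested on simulated data. Lengths are of all GENCODE M21 exons of a gene (GRCm38). The genes named are the 4 genes, the called genes of 8 pathway lists and of the cell type markers, the 3 listed genes with a symbol nearest to each of the 4 in log2 means, and its neighbours by fold; rows without a symbol were left out of these neighbours. The members and lists were chosen with earlier results of these data known; motif searches, implied standard errors and ranks per kilobase were added after the values were seen. Python 3.11.15, numpy 2.4.6, pandas 2.3.3, scipy 1.17.1 and matplotlib 3.10.9 were used.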

Additional observations from a re-analysis of the deposited data

How the results depend on the processing

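The alternatives tried could only remove calls, because the table holds called genes. Nptx2, Scg2 and Pcsk1 kept their calls at an adjusted p-value below 0.01 and with a 2-fold minimum; at 0.001 the count was 2, without Pcsk1 (adjusted p = 0.00114). With a Bonferroni correction over 28319 genes 0 of the 3 remained, against 159 of all genes. The Bonferroni adjusted values computed from the authors' p-values were 0.0665 for Scg2, 0.155 for Nptx2 and 0.240 for Pcsk1. The call of Nptx1 was lost under each of these settings, leaving 0 lower, and held with a minimum mean of 50. Adding 1 or 10 reads to both means moved no log2 fold change of the 4 by as much as its implied standard error. Centring on the median of the listed genes gave log2 fold changes of -1.14 for Nptx1, 3.26 for Nptx2, 1.28 for Scg2 and 1.85 for Pcsk1, with every direction as before; that median is itself of called genes. In reads not divided by length, the Nptx2 to Nptx1 ratio was 0.0547 in sham and 1.15 in ischemia, against 0.113 and 2.37 per kilobase. That of Pcsk1 to Scg2 was 0.106 and 0.157 in reads, 0.0475 and 0.0704 per kilobase of all exons, and 0.0528 and 0.0783 per kilobase of the longest transcript, an alternative added after seeing the data. Of 80 counts for the pathway lists under these settings, 20 fell by more than 1.5 times. Some lists had a main count of 0 that could not fall, and a count of calls cannot reverse. The remaining counts therefore say little about stability. Leaving out replicates was not run, since the values are group means. No paired analysis was possible because the columns carry no replicate numbers.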
